A study of Mus musculus with 4 samples.

Results

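Ido1 encodes indoleamine 2,3-dioxygenase 1, and its transcript was followed in RNA-seq of 4 mammary tumour samples of female MMTV-PyMT mice. It was taken by its symbol as 1 of the 1142 genes in the deposited tables, and it was chosen by its difference in level between the knockout and the control samples. Control 1 and control 2 carried the transgene without a miR-9 knockout, and knockout 1 and knockout 2 carried it with the knockout. MMTV-PyMT mice express polyoma virus middle T antigen under a mouse mammary tumour virus promoter, which is active chiefly in mammary epithelium. All animals were of a mixed C57BL/6 background, and females were compared with littermates. Knockout lines came from heterozygotes for a deletion of miR-9 exon 1. The labels give neither which miR-9 locus was deleted nor whether the knockout tumours were homozygous. The labels also leave out age and the number of animals or tumours behind a sample, so any p-value measures only the spread between these samples, which may be technical.

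IDO1 is a haem enzyme that carries out the first and rate-limiting step of tryptophan breakdown along the kynurenine pathway. It is known as an immune regulator: dendritic cells, macrophages and some tumour cells make it when exposed to interferon gamma, and T cells are restrained both by loss of tryptophan and by kynurenines, which activate the aryl hydrocarbon receptor. miR-9 is a microRNA that pairs through its seed with complementary stretches of messenger RNAs and lowers their output.

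Because the knockout removes a microRNA, its mature strands are shown first, with the seed (bases 2 to 8) in capitals. The RefSeq table for GRCm38.p6 gives 3 miR-9 loci, on chromosome 3 (5p strand at chr3:88215613-88215635), chromosome 7 (chr7:79505279-79505301) and chromosome 13 (chr13:83738821-83738843), all on the plus strand, with identical mature sequences.
mmu-miR-9-5p: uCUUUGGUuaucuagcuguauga
mmu-miR-9-3p: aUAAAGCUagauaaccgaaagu

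Neither annotated Ido1 transcript held a seed match to either strand. Ido1 (ENSMUSG00000031551) lies on the minus strand of chromosome 8 at chr8:24584136-24597009 in GRCm38, with the same start and end in the deposited tables and in GENCODE M21. The motifs searched on the transcript strand were ACCAAAG and CCAAAGA for miR-9-5p, AGCTTTA and GCTTTAA for miR-9-3p, and the 6-base cores CCAAAG and GCTTTA, which overlap the longer motifs. Each had 0 matches in transcripts Ido1-201 and Ido1-202. The 3' UTR of Ido1 is 266 bases long, and either 7-base motif of miR-9-5p occurred in 4.17% of the 1462 mouse 3' UTRs within 1.2 times that length, in 20.3% of all 21007 and in 26.0% of the 1038 of listed genes. For miR-9-3p these shares were 4.24%, 17.4% and 19.5%. The absence says only that these letters are not in these transcripts.

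The transcripts differ at their 5' ends. Ido1-201 has 10 exons, 1560 bases and a coding length of 1221 bases (407 codons), with its start codon in exon 1. Ido1-202 also has 10 exons, with another first exon, 1656 bases and a coding length of 948 bases (316 codons) that begins in exon 3. The deposited value is 1 per gene over a model of 1825 bases, the union of both transcripts' exons, so the 2 transcripts were not measured separately. No other gene annotated in GENCODE M21 overlaps Ido1, so it has no annotated antisense or overlapping partner that could share its reads. Unannotated transcripts and reads that map to more than 1 place were not examined.

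**Figure D1:**
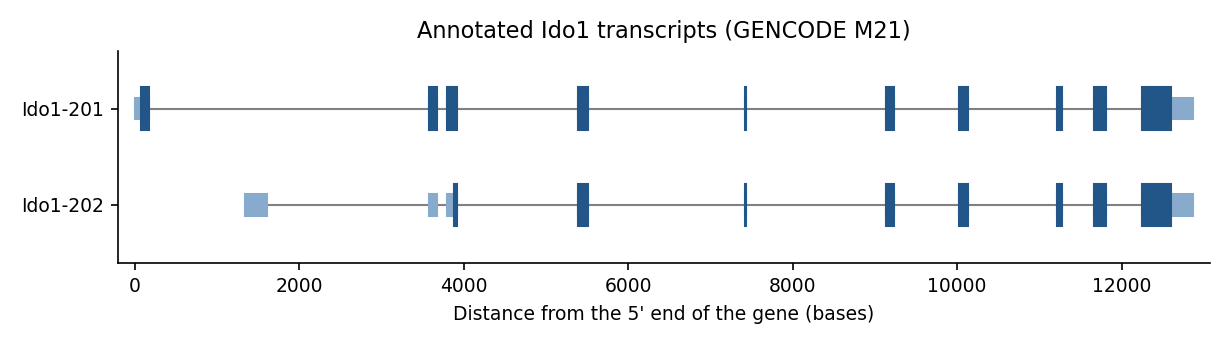
Exon maps of the 2 annotated Ido1 transcripts, drawn to scale by distance in bases from the 5' end of the gene; tall dark blocks are coding, low pale blocks are untranslated and lines are introns. The transcripts share all exons but the first, and coding starts in exon 1 of Ido1-201 and in exon 3 of Ido1-202.

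Ido1 was near the floor of detection in both control samples and clearly present in both knockout samples. Its level was 8.02 normalised reads in control 1, 12.4 in control 2, 291 in knockout 1 and 297 in knockout 2, where a normalised read count is the number of reads on the gene divided by 1 size factor per sample. Both knockouts lay above both controls, and the lower knockout was 23.4 times the higher control. The group means were 10.2 ± 3.12 and 294 ± 4.41 (SD, n = 2 in each), a ratio of 28.8. On the log2(value + 1) scale the difference was 4.75 ± 0.46 (SE from limma). Since the gene was picked for this difference, no test of it is given.

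Reads behind these values were few in the controls. Division by the value of 1 read gave 8 and 11 reads in the controls, against 322 and 310. The exact Poisson 95% interval, which covers counting error only, was 3.46 to 15.8 normalised reads in control 1, 6.20 to 22.2 in control 2, 260 to 325 in knockout 1 and 265 to 332 in knockout 2. The controls' intervals overlap each other, as do the knockouts', and the 2 pairs stand far apart. From the 19 control and 632 knockout reads the ratio was 29.1, with an exact Clopper-Pearson 95% interval of 18.5 to 48.7. That interval sets the precision of the fold from counting, and control depth is what limits it.

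**Figure D2:**
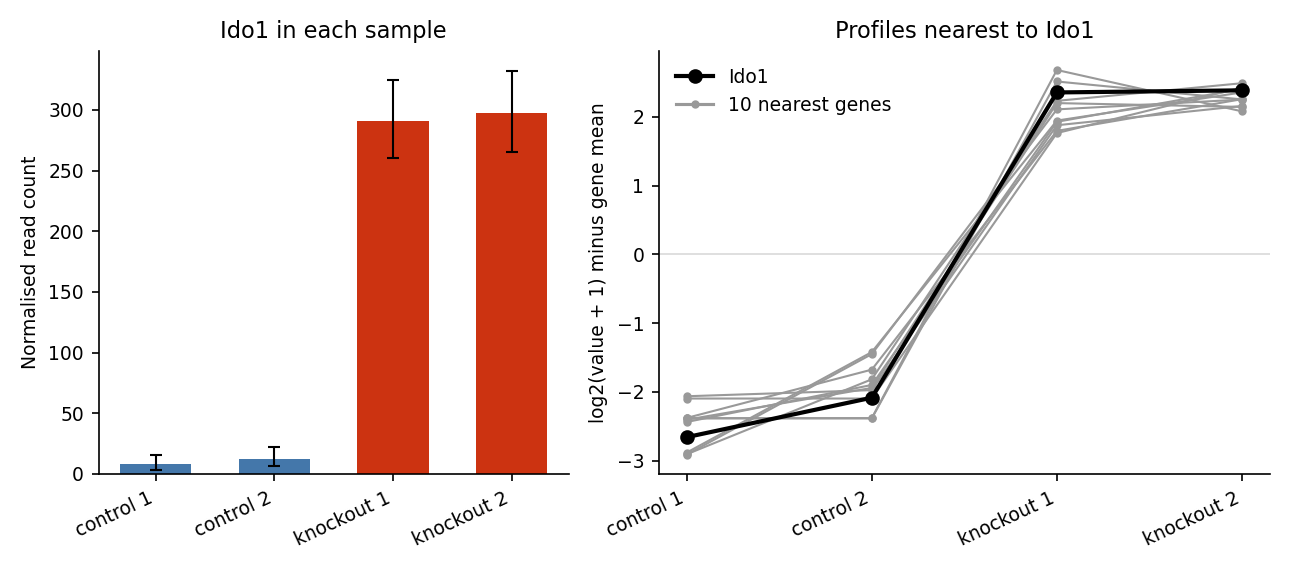
Left, Ido1 in normalised reads in each sample, with bars of the exact Poisson 95% interval (counting error only): the controls are at 8.02 and 12.4 and the knockouts at 291 and 297. Right, log2(value + 1) minus each gene's mean over the 4 samples, for Ido1 (black) and the 10 genes with the nearest profiles (grey), which all step up between the controls and the knockouts.

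Both knockout samples had nearly equal Ido1. They differed by 0.03 on the log2(value + 1) scale, against a median difference of 0.25 over the listed genes, and 8.41% of the other genes differed less. Of the 232 genes within 1.5 times the knockout mean of Ido1, 14 differed less. Knockout 1 held 50.9% of the knockout reads of Ido1 (Clopper-Pearson 95% interval 47.0% to 54.9%) and 51.5% of the depth, so the samples differed by no more than counting error. The controls differed by 0.57 on the same scale, near the median of 0.62, and control 1 held 42.1% of their reads (20.3% to 66.5%) with 53.0% of their depth.

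Per length, Ido1 ranked low among the listed genes in the controls and high in the knockouts. Its level was 4.39 and 6.81 normalised reads per kb in the controls, against 159 and 163. Of the other listed genes, 16.2% had a lower mean level per kb in the controls and 80.9% in the knockouts. By log2 change Ido1 stood at place 11 of 1142, and between place 6 (pseudocount 5) and place 35 (pseudocount 0.1) over all settings. Of the 10 genes above it, 2 had at least as many control reads as Ido1: Fgb, the fibrinogen beta chain, at 32.1 and 133 against 2509 and 4037, and Reln, the extracellular matrix protein reelin, at 9.02 and 42.9 against 679 and 741. These 2 were named after their values were seen. In each, both knockouts lay above both controls.

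**Figure D3:**
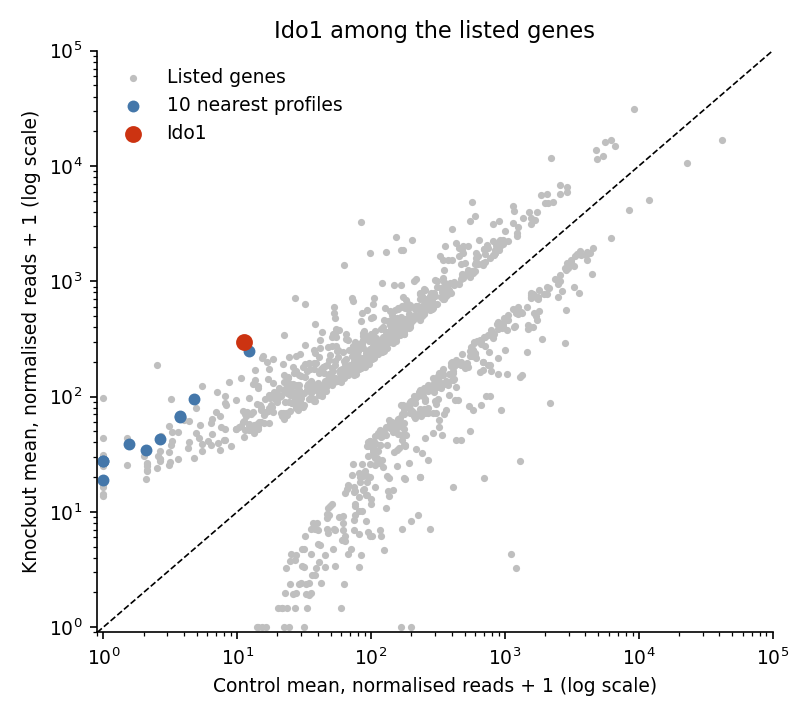
Mean of the knockouts against mean of the controls, in normalised reads plus 1 on log axes, for all 1142 listed genes (grey), the 10 genes with the nearest profiles (blue) and Ido1 (red); the dashed line marks equal means. The empty band along it shows that the table holds only genes at least 2.0-fold apart, and Ido1 lies at the upper left edge of the higher genes.

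The table itself is a selection, which bears on every count here. The group means of every listed gene were 2.0-fold or more apart, the samples of the groups did not overlap in 1141 genes (99.9%), and limma with Benjamini-Hochberg adjustment called 1140 of them (99.8%), 700 higher (61.3%) and 440 lower (38.5%). Without knockout 1, and likewise without knockout 2, 13 genes were called, and 52 of 56 list members and like or neighbouring genes lost their call. The listed genes held from 458335 to 697334 reads per sample, and relative depth differed by up to 1.25 times. Scaling on the listed genes themselves turned the higher share of calls from 61.4% to 55.2% (totals), 51.3% (upper quartile) and 35.9% (TMM). With DESeq2, which changed the test as well as the scaling, it was 21.6%. These settings also moved the median log2 change of all genes from 1.23 to 0.88, 0.79, 0.48 and 0.13. Ido1 stayed higher in each, at 4.51, 4.42, 4.11 and 3.78 on the log2 scale. Relative to the median gene it was 3.52 higher with the deposited size factors and 3.11 to 3.65 higher across all settings. TMM and DESeq2 scaling take most genes as unchanged, which a table of genes 2.0-fold or more apart does not meet. Genes with a change near the median therefore tend to lose their call under them. Which scaling is nearer the truth cannot be settled from the listed genes. As a share free of size factors, Ido1 took 1.56 and 2.40 of every 100000 listed reads in the controls, against 46.3 and 44.5. Transcripts of the miR-9 loci were looked up and 0 were listed, so the deletion could not be checked.

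Of the other enzymes and transporters that handle tryptophan, 1 was in the table. None of the other genes among 23 fixed for the kynurenine pathway and other tryptophan enzymes was listed, Ido2, Tdo2 and Kmo included, and their levels were not analysed here. Of 15 transporters of tryptophan and kynurenine, Slc7a8, a carrier of neutral amino acids, was listed and rose. It was at 88.2 and 127 in the controls against 226 and 241, a ratio of 2.17 (limma adjusted p = 0.0173). Its log2 change was 1.13 against 4.75 for Ido1, and the call was lost with every scaling on the listed genes, DESeq2 included (adjusted p from 0.0635 to 0.964). None of 13 haem and nitric oxide partners of the enzyme was listed.

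Genes that respond to kynurenines or to lack of an amino acid did not all go one way. Of 14 genes of the aryl hydrocarbon receptor and its targets, Cyp1b1, a cytochrome P450 induced by that receptor, was listed and fell. It had 2202 and 461 normalised reads in the controls against 125 and 180, 8.73-fold lower (limma adjusted p = 0.00735). The controls were far apart, and without control 1 the log2 change was -1.61 in place of -2.74, and without control 2 it was -3.87. Of 14 amino acid starvation genes 3 were listed, 1 higher and 2 lower. Stc2, the secreted glycoprotein stanniocalcin 2, was at 109 and 198 in the controls against 1979 and 2875 and so rose 15.8-fold (limma adjusted p = 0.00101). Chac1, which breaks down glutathione, was at 150 and 61.0 against 39.8 and 17.3, having fallen 3.71-fold (limma adjusted p = 0.0184). Phgdh, the first enzyme of serine synthesis, was at 3597 and 2645 against 1807 and 1275, 2.02-fold lower (limma adjusted p = 0.0183). Neither fall was called without control 1 (limma adjusted p = 0.179 for Chac1 and 0.0775 for Phgdh).

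Of the 2 interferon lists, chosen because interferons are the best known inducers of Ido1, 1 gene was in the table. None of 32 genes fixed for the interferon gamma pathway and its targets was listed, among them Ifng, Irf1, Cxcl9 and Gbp2. The MHC class II genes H2-Aa, H2-Ab1 and H2-Eb1, which rose, were placed in the dendritic cell list and not in this one. Of 24 type I interferon response genes, Oas3, a sensor of double-stranded RNA, was listed and rose. It was at 159 and 83.6 against 472 and 322, a ratio of 3.27 (limma adjusted p = 0.00803), and was not called with TMM (adjusted p = 0.134) or DESeq2 (0.466). A gene left out of the table may differ less than 2.0-fold or may not have met some other criterion of the authors. The absence therefore does not show that these genes were unchanged. Other interferon-inducible genes, outside the lists and named after their values were seen, were in the table and rose. Ifi204, a sensor of DNA, was at 126 and 168 against 475 and 355 (limma adjusted p = 0.00792), and Mndal, of the same family, was at 86.2 and 112 against 313 and 304 (limma adjusted p = 0.00615). Their log2 changes, 1.49 and 1.64, were smaller than the 1.75 of Oas3. Interferon-inducible genes outside the lists were not gathered in full, so these 2 give no range for such genes. Whether they were called with TMM or DESeq2 is not given here.

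Of 26 inducers and regulators of Ido1, 2 were listed and both rose, where 61.3% of all listed genes were called higher. Tlr9, a receptor for microbial DNA, had the same read numbers as Ido1 in the controls, 8 and 11, and was at 8.02 and 12.4 normalised reads there. In the knockouts it was at 71.4 and 49.9, a ratio of 5.93 (limma adjusted p = 0.0069), against 28.8 for Ido1 from the same start. Tyrobp, a signalling adaptor of myeloid and NK cells, was at 304 and 521 against 819 and 1045, a ratio of 2.26 (limma adjusted p = 0.0137). Tyrobp was not called with any scaling on the listed genes. Tlr9 was called with totals, upper-quartile and TMM scaling and not with DESeq2 (adjusted p = 0.187). Of 22 immune checkpoint and suppressive genes, Ikzf2, a transcription factor of regulatory T cells, was listed. It was at 55.1 and 91.5 against 176 and 157, a ratio of 2.27 (limma adjusted p = 0.0197). With every scaling on the listed genes it was not called. Cd274, Ctla4, Foxp3 and Arg1 were among the members not listed.

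**Figure D4:**
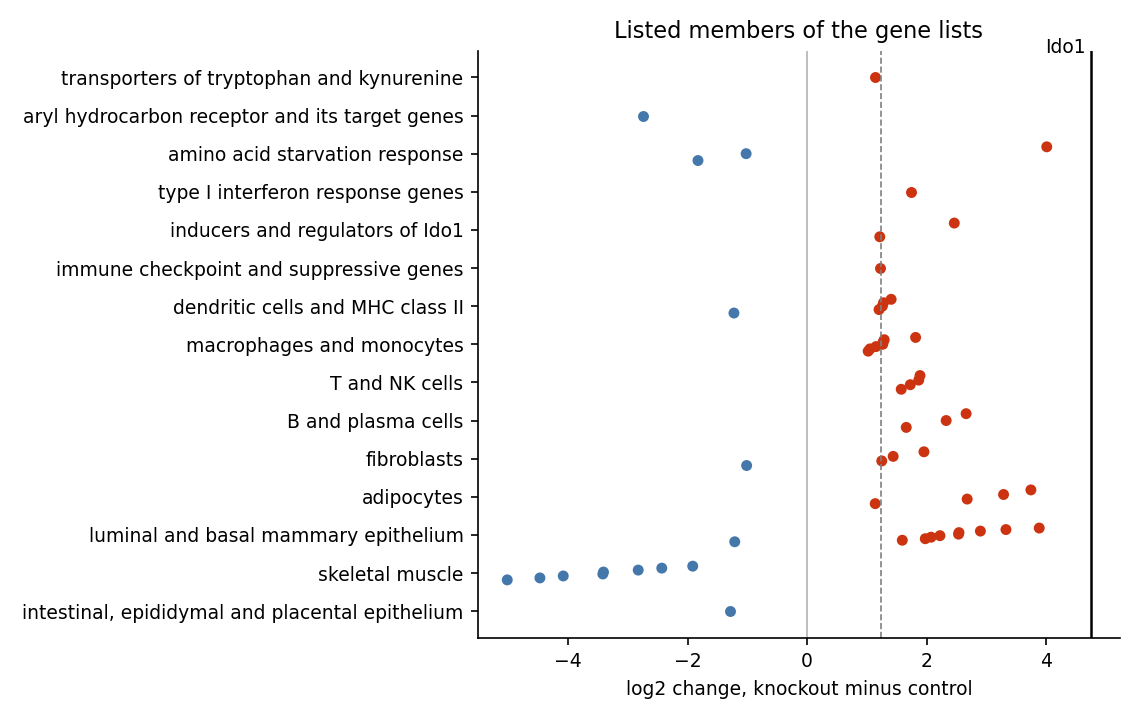
Log2 change, knockout minus control, of each listed member of the gene lists (1 point per gene; red higher, blue lower), with Ido1 as a black line at 4.75 and the median of all listed genes as a dashed line at 1.23. No listed member lies to the right of Ido1, Acta1 fell by 5.02, and the members of the immune cell lists lie between 1.02 and 2.66 except for Fscn1.

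Dendritic cells and macrophages can make Ido1. The listed macrophage genes and the MHC class II genes H2-Aa, H2-Ab1, H2-Eb1 and Cd74 were higher in the same samples, by less than Ido1. The other listed gene of the dendritic cell list, Fscn1, was lower. In bulk tissue, more cells of a type and more RNA per cell cannot be told apart. Of 16 genes of dendritic cells and MHC class II 5 were listed, 4 rose and 1 fell. Their median log2 change was 1.26 beside 1.23 for all listed genes, of which 61.3% were called higher. H2-Aa, an MHC class II chain, was at 2241 and 2929 against 6065 and 7600, and Fscn1, an actin bundler of mature dendritic cells, fell from 687 and 647 to 295 and 274. The dendritic cell markers Itgax, Xcr1 and Clec9a were not listed. Of 20 macrophage and monocyte genes 7 were listed and all 7 rose (median 1.27), for example the growth factor receptor Csf1r, from 452 and 748 to 1362 and 1487. TMM scaling, and DESeq2, ended most of these calls: with TMM 0 of the 4 class II risers and 1 of the 7 macrophage genes were still called higher, and with DESeq2 none.

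The listed members of the lymphocyte lists rose too, in a table where 61.3% of all genes were called higher. Of 20 T and NK cell genes 4 were listed and 4 rose (median 1.80). Gzmb, a protease of cytotoxic granules, was at 25.1 and 27.1 in the controls against 105 and 94.0. Of 16 B and plasma cell genes 3 immunoglobulin heavy chain genes were listed and rose (median 2.33), with Ighg1 at 44.1 and 55.4 against 242 and 417; the gamma chain genes are alike in sequence and may share reads. With TMM 1 of the 4 and 2 of the 3 were called, and with DESeq2 0 and 1. Lymphocyte genes outside the lists, named after their values were seen, went both ways. The variable segments Igkv1-88, Iglv2 and Ighv9-3 rose (log2 changes 3.82, 3.09 and 2.22), while Igkv1-133 fell (-3.68). Cd27, a receptor of T and B cells, was at 205 and 131 against 34.3 and 47.9 (limma adjusted p = 0.0065), and the variable segment Ighv1-15 at 57.1 and 12.4 against 0 and 1.92 (limma adjusted p = 0.0089). No neutrophil, mast cell or endothelial marker among 12 fixed for each list was in the table.

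Stromal, fat, epithelial and muscle markers moved too, in a table where 61.3% of all genes were called higher and 38.5% lower. Of 13 fibroblast genes 4 were listed, 3 rose and Fn1, fibronectin, fell (median 1.34), with 1 of the 3 risers called under TMM scaling and 0 with DESeq2. All 4 listed of 12 adipocyte genes rose (median 2.98), such as Lep, leptin, from 3.01 and 11.3 to 61.4 and 141. With TMM, and with DESeq2, 3 of the 4 were called. Without control 1 their median log2 change was 2.29, and without control 2 it was 3.68. Of 20 luminal and basal epithelial genes, which mark the labelled mammary tissue, 10 were listed, 9 rose and 1 fell (median 2.38). The keratin Krt5 rose from 277 and 429 to 2140 and 1892, and the keratin Krt14 fell from 3993 and 2526 to 1344 and 1396. With TMM 9 were called higher and 1 lower, and with DESeq2 7 higher and 1 lower. All 8 listed of 12 skeletal muscle genes fell (median -3.42), Acta1, skeletal actin, from 431 and 384 to 26.2 and 4.79. All 8 were also called lower with TMM and with DESeq2. Of 16 markers of gut, epididymis and placenta, other tissues that express Ido1 in mice, Vil1, the villin of gut epithelium, was listed and fell, from 203 and 90.4 to 58.7 and 50.8. That fall was not called without control 1. Of the listed members of the marker lists, Myh1, a fast myosin of skeletal muscle, was the gene with a value of 0 in a sample, in knockout 1.

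Set against the marker lists within the same sample, a measure that no size factor enters, the difference in Ido1 varied in size with the list. Its direction follows from the choice of Ido1, whose difference is larger than that of the lists, and supports nothing. Against the summed listed macrophage genes, 9847 and 17003 normalised reads in the controls against 36488 and 43660, control Ido1 was 0.814 and 0.731 per 1000 and knockout Ido1 7.97 and 6.81. The ratio of means was 9.57. Apoe, an apolipoprotein, made up from 66.6% to 77.8% of that sum, and against the other 6 macrophage genes the ratio was 13.7. Against the dendritic cell and MHC class II genes (10417 and 14030, then 26160 and 30275) control Ido1 was 0.770 and 0.886 per 1000 and knockout Ido1 11.1 and 9.82, a ratio of 12.6.

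The other lists with at least 3 listed genes gave a wide range. Relative Ido1 was 8.43 times higher in the knockouts against T and NK cell genes (summed levels 77.2 and 97.2, then 293 and 310). It was 6.56 times higher against B and plasma cell genes (165 and 230, then 732 and 1085), with 5.35 without knockout 1 and 7.76 without knockout 2. Against epithelial genes (10943 and 16024, then 44295 and 46852) it was 8.56 times higher. Against fibroblast genes (10520 and 12847, then 21076 and 27179) the ratio was 14.3. For adipocyte genes (410 and 569, then 933 and 2290) it was 10.7, with 6.27 without knockout 1 and 15.1 without knockout 2. It was 23.2 against amino acid starvation genes (3856 and 2903, then 3826 and 4168), with 17.2 without control 1 and 35.4 without control 2. Against skeletal muscle genes, which summed to 609 and 1059 and then to 75.0 and 45.1, it was 421. That ratio was 530 without knockout 1 and 312 without knockout 2. The part of these cell types in the level of Ido1 was not tested, and the lists hold only the genes that entered the table.

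**Figure D5:**
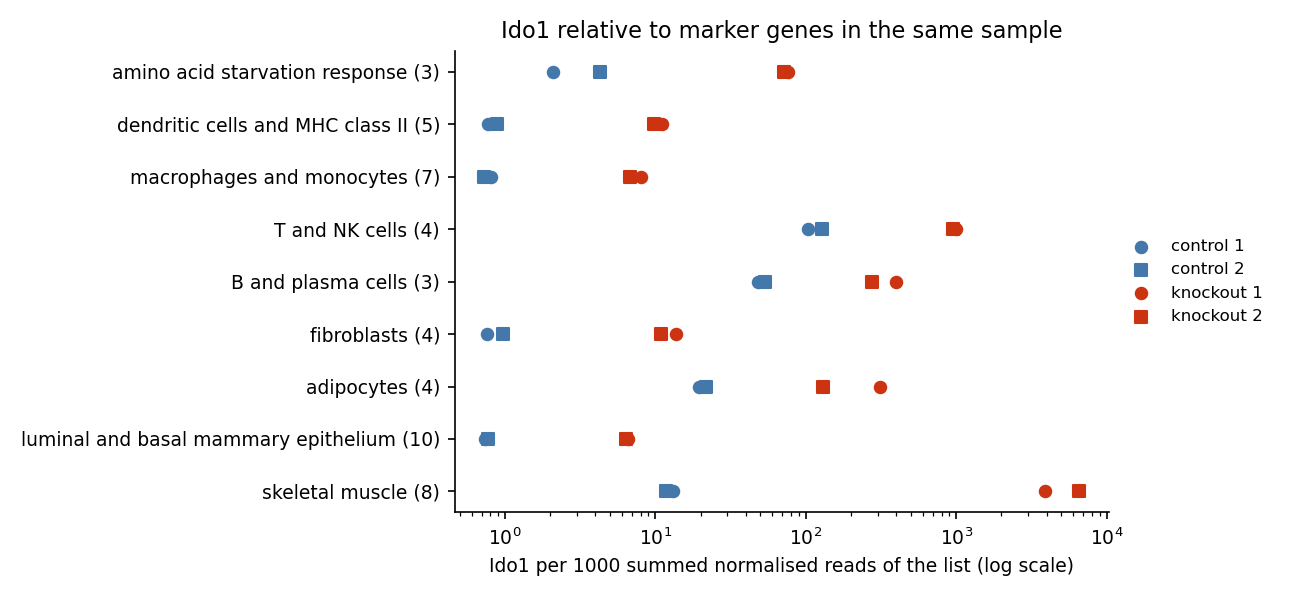
Ido1 per 1000 summed normalised reads of each list's listed members (number in brackets) in the same sample, on a log axis; circles are replicate 1 and squares replicate 2, blue for controls and red for knockouts. The distance between the groups ranges from 6.56 times for B and plasma cell genes to 421 times for skeletal muscle genes, which fell.

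Single genes can be compared with Ido1 per length. Ido1 stood at 4.75% and 4.45% of the level of Csf1r in the controls and at 57.2% and 53.5% in the knockouts. Relative to Nkg7, a cytotoxic granule protein, it was at 36.4% and 39.4%, then at 264% and 317%. Relative to Foxa1, a transcription factor of luminal epithelium that itself rose 13.9-fold, it was at 18.9% and 12.5%, then at 36.1% and 25.7%. For Krt19, a keratin of the same epithelial list, Ido1 was at 0.236% and 0.209%, then at 2.25% and 2.09%. The shift thus differed between the epithelial genes, with how far each of them rose. Relative to Tlr9 Ido1 was at 191% in both controls, and at 777% and 1136% in the knockouts.

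With a pseudocount of 1, the genes with the most similar profile were mostly ones with hardly any control reads, which was not so with other measures of likeness. Likeness was the Euclidean distance between log2(value + 1) profiles over the 4 samples, each centred on its mean, among 1048 genes with a name other than a predicted or RIKEN one. The nearest were Tmem215, a transmembrane protein (distance 0.40), Klb, the co-receptor beta-klotho (0.41), Tescl (0.46), Ttc6 (0.52) and Sbp, the spermine-binding protein (0.60). Next came Proc, the anticoagulant protein C (0.74), Tbx3os2 (0.76), Mup6 (0.80), Cldn6, a claudin of tight junctions (0.81), and Hoxc10, a homeobox factor (0.82). The median over all genes was 3.54. Of the 10, 6 had at most 3 control reads, against 0 of the nearest 10 with a pseudocount of 5 and 0 by Pearson correlation, and of the 9 with an annotated 3' UTR, 1 (Tmem215) held a 7-base miR-9-5p motif.

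Ttc6 and Klb had the most control reads of the 10, 21 and 7. Proc and Cldn6 followed with 5 control reads each and ratios of 24.5 and 23.7. Ttc6, a protein with tetratricopeptide repeats, was at 9.02 and 13.6 in the controls against 206 and 288, a ratio of 21.9. Klb was at 3.01 and 4.52, then 96.7 and 93.0, a ratio of 25.2. Tmem215 had 1 control read and 81 knockout reads, a ratio of 70.9 (95% counting interval 12.4 to 2837). Tescl, Sbp and Hoxc10 had no control read. With 3 reads over both controls together as the floor, Tescl was at least 16.6-fold higher, Sbp at least 16.9-fold higher and Hoxc10 at least 11.1-fold higher. Mup6 belongs to a family of near-identical genes and Tbx3os2 lies opposite another gene, so their reads may be shared. Of these 10 genes 2, Klb and Ttc6, were also among the nearest 10 with a pseudocount of 5, and 1, Klb, when ordered by Pearson correlation, which ignores the size of a change.

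Near Ido1 on chromosome 8 almost nothing else was listed. Its closest protein-coding neighbours in GENCODE M21, Adam18 at 5.24 kb and Ido2 at 7.80 kb, were not in the table. Of 116 other protein-coding genes within 5 Mb, 1 was. Atp7b, a copper transporter 2.52 Mb away (chr8:21992785-22060305, minus strand), went the other way: its values were 60.1 and 41.8 in the controls against 3.61 and 3.83, 13.7-fold lower (limma adjusted p = 0.0037). Of the 44 listed genes of chromosome 8, Ido1 included, 29 were higher and 15 lower.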

How the data were processed

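Total tumour RNA was made into TruSeq libraries and read on an Illumina NovaSeq, per the labels' protocols. Bowtie 0.12.2 is listed, together with builds of mouse and of human, per the submitters' processing notes. How reads were counted, and by which criteria genes were listed, is not given in the sources used here. The deposited signal values, made by the authors, are reads per gene over a size factor of the sample: in every sample 100% were whole multiples of the smallest value to within 1e-06. In control 1 that step, 1.00, makes recovered and rounded reads harder to tell apart.

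The table was fitted with limma 3.58.1 (R 4.3.3, trend) on log2(value + 1), minimum mean 0.5, which removed 0 genes, with genotype as the single term and Benjamini-Hochberg adjustment at 0.05 over 1142 genes. The script was tested on simulated data. Leaving samples, or Apoe, out of the ratios to marker lists was chosen after seeing the data. Alternatives used edgeR 4.0.16 and DESeq2 1.42.0 on recovered reads. Ratios, likeness and motifs used Python 3.11.15. Replicates differed beyond sampling noise (chi-square per degree of freedom 53.7 in controls, 14.5 in knockouts).

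Ido1, the gene lists and the tests were chosen with earlier results of these data known. Besides Ido1, the genes named were the 10 nearest profiles, up to 8 members of each pathway list and 5 of each cell type list by size of change, and listed genes within 5 Mb. Fgb, Reln, Ifi204, Mndal, Cd27, Ighv1-15 and list members outside the table were named outside this rule. Intervals and floors cover counting error only, since reads carried no molecular identifiers.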

Additional observations from a re-analysis of the deposited data

How the results depend on the processing

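Ido1 was higher in the knockouts under all 14 alternatives. Its log2 change of 4.75 became 4.31 with a pseudocount of 5, 4.11 with TMM, 4.42 with upper-quartile factors and 3.78 with DESeq2, shifts larger than the spread between its replicates (0.29 on the log2 scale). When 1 sample was left out it ranged from 4.46 to 5.03. With 2 samples per group such a shift cannot exceed that spread, whatever the values, so it is no sign of stability. The DESeq2 setting changes both the scaling and the test, and its parts were not separated. The 1140 genes called became 690 with TMM and 564 with DESeq2, and 13 to 1070 without 1 sample. Of the 10 nearest genes, 2 were kept with a pseudocount of 5 and 1 by Pearson correlation. Same-numbered samples did not deviate together (correlation 0.043 across genes). With the replicate number as a block, 1142 genes were called and the log2 change of Ido1 was again 4.75. None of 56 list members and like or neighbouring genes changed sign in any alternative. Of these, 24 lost their call with DESeq2, 19 with TMM and 52 without either knockout. The 19 control reads of Ido1 limit the counting precision of its fold, which leaves out the variation between samples.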
